A study of Mus musculus with 6 samples.

Results

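The keratins and the desmosome genes of the mouse were followed on 6 one-colour Agilent arrays of NIH3T3 cells, a mouse embryonic fibroblast line. Their probes were chosen by the gene name printed on the array: Krt followed by a number, Pkp1 to Pkp4, Dsp, Jup, Ppl, Evpl, and Dsg or Dsc with a number and an optional letter. The rule found 64 genes with 84 probes among the 50090 gene names and 61307 probes of the array. Of these genes 47 were keratins with 54 probes, and 17 were desmosome genes with 30 probes.

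GFP cells carried a retroviral vector for GFP alone and were the control, while LT7 and ST7 cells carried the same vector for SIRT7 fused to GFP. All cells went through selection with Geneticin and were grown in DMEM with 10% FBS. LT7 are long cells and ST7 small cells, both isolated with cloning cylinders from confluent SIRT7 cultures and expanded after single cell cloning, so that each line descends from single cells. Each line was measured with 2 replicates, which came from different passages of a line and not from separate transductions, so the p-values measure only the spread between such samples. The comparisons ask which of these genes of epithelial cells changed in the long and the small line. The 2 comparisons with GFP share the GFP arrays.

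The arrays labelled ST7 stood apart from the others. The brighter Sirt7 probe read 3125 and 2480 on the GFP arrays and 3633 and 2782 on the LT7 arrays, but 2.85 and 3.28 on the arrays labelled ST7, where it was at background. The gene that this line was made to overexpress was thus not detected by its probes on the arrays that carry the label ST7. In LT7, made with the same vector, the Sirt7 values overlapped those of GFP. Whether the probes read the vector's transcript was not tested. By immunoblot the paper saw no significant difference in SIRT7 fusion protein between LT7 and ST7. The arrays alone cannot tell whether they hold the ST7 line, and below the name ST7 stands only for what was read on them. The 75th percentile of the signal was 16.3 and 17.1 on the ST7 arrays, against 317 to 384 on the others. Subtracting it, as the authors did, raises every ST7 value relative to the other lines, and it moved the median log2 difference between ST7 and GFP over all probes from -0.68 to 3.72. Signals are therefore given first as read by the scanner, in units of background-subtracted intensity, and each direction in ST7 is given under 5 scalings: the 75th percentile over all probes, the 75th percentile over the 11084 probes that all 6 arrays detected, quantile normalization, spike-in RNAs, and none. The shift in the text is the first of these. The spike-in scaling used 5 of the 10 spike-in RNAs. Under it the SE of Krt15 in LT7 against GFP was 1.79, against 0.23 after the shift. In that comparison it called 0 of all probes higher and 3 lower, so a probe not called under it may still have changed. A probe was called when limma gave an adjusted p under 0.05 and both arrays of the higher line showed it well above background, a mark that the scanner software sets for each spot. In RNA of whole cultures, fewer cells with a transcript and less of it per cell cannot be told apart. The markers of a fibroblast also differed there. Of 12 fibroblast markers 11 were well above background on both arrays in GFP and in LT7 and 4 in ST7 through their brightest probe, and their summed signal was 411000 to 424300 in GFP, 450100 to 450600 in LT7 and 15080 to 16620 in ST7. Dcn, Thy1 and Lum, which are among the markers that define fibroblasts, were at background on both ST7 arrays, while Vim, the vimentin gene, was at 14612 and 16192. The part of these differences in the results below was not tested.

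Keratins are the intermediate filament proteins of epithelial cells. A filament is built from pairs of an acidic type I and a basic type II keratin, and the pair in use tells the kind of epithelium: Krt8 with Krt18 in simple epithelia, Krt5 with Krt14 or Krt15 in the basal layer of stratified epithelia, and others in cornified layers and hair. Desmosomes fasten these filaments to the cell surface. Their cadherins, the desmogleins (Dsg) and desmocollins (Dsc), hold neighbouring cells together, the armadillo proteins plakoglobin (Jup) and the plakophilins (Pkp) bind the cadherin tails, and the plakin desmoplakin (Dsp) ties the plaque to keratin. Fibroblasts are not known for either structure.

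Of the keratins, 25 lay on chromosome 11 and 21 on chromosome 15 in the RefSeq table of GRCm38.p6, and no protein-coding gene lies between Krt8 and Krt18 there. The 250 bases upstream of the start of 4 genes are shown as RefSeq gives them in that build, 5′ to 3′ on the strand of the gene, because within each of these pairs the signal took opposite courses on the ST7 arrays: the neighbours Krt18 and Krt8, and the plaque proteins Dsp and Jup. Capitals mark the E2-box CAGGTG, read as CACCTG on the other strand, and the GC-box GGGCGG, read as CCGCCC.
Krt18 (chr15:102027966-102028215, plus strand): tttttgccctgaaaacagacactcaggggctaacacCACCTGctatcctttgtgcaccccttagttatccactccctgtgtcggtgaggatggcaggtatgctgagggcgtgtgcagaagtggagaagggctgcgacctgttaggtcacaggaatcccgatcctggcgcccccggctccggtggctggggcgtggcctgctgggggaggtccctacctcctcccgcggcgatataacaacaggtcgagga
Krt8 (chr15:102004343-102004592, minus strand): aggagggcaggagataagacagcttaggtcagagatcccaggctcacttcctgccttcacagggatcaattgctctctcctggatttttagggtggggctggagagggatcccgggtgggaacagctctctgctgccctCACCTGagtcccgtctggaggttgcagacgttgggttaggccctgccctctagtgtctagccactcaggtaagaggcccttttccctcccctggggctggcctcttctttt
Dsp (chr13:38151044-38151293, plus strand): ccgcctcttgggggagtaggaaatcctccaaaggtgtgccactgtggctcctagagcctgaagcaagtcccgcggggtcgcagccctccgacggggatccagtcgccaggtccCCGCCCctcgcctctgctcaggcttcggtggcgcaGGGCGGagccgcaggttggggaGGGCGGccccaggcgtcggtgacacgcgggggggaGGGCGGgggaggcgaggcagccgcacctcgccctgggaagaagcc
Jup (chr11:100397791-100398040, minus strand): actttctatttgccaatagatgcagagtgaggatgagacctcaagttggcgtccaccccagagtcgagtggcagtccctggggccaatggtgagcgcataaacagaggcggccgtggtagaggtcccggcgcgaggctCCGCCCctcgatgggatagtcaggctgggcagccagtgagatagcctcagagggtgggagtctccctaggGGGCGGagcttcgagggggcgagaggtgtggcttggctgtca
The E2-box, to which Snail and Zeb repressors are known to bind, occurred once in Krt18 (214 bases before the start) and once in Krt8 (111 bases before it), and in neither Dsp nor Jup. The GC-box occurred 4 times in Dsp and 2 times in Jup and in neither keratin. The AP-1 motif TGANTCA and the TATA motif TATAAA were in none of these 4 windows, and none of the marked motifs overlapped. In the 250 bases before the start, read on both strands, 17.2% of all 32851 promoters of the table held the E2-box. The GC-box was in 32.7%, the AP-1 motif in 6.75% and the TATA motif in 12.4%. Of the 37 member genes with a promoter in the table, 14 held the E2-box, 5 the GC-box, 1 the AP-1 motif and 16 the TATA motif.

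A gene was taken as detected in a line where the scanner software marked a probe of it as well above background on both arrays. These were 21 of the 64 genes in GFP, 19 in LT7 and 12 in ST7. By probes these were 28.6%, 25% and 16.7% of the 84, against 52.4%, 44.2% and 22.7% of all probes on the array. Among the keratins the counts were 14, 11 and 8 of 47, and among the desmosome genes 7, 8 and 4 of 17. In all 3 lines 9 of the 64 genes were detected in this way, against 9900 of all 50090 gene names. They were the keratins Krt13, Krt14, Krt16, Krt17, Krt42 and Krt84, the desmocollin Dsc3, the plakophilin Pkp4 and the plakin Evpl. GFP and LT7 shared another 8, which were Krt7, Krt8, Krt85, Krt86, Jup, Pkp1, Pkp2 and Pkp3. GFP and ST7 shared Krt5. In GFP alone there were 3 (Krt2, Krt75 and Krt83), in LT7 alone 2 (Krt15 and Ppl) and in ST7 alone 2 (Krt18 and Dsp). How many of all gene names fell to a single line or a pair of lines was not counted. The lowest signal so marked was 13.5 on both GFP arrays, 13.9 and 15.5 on the ST7 arrays, and 20.0 and 22.3 on the LT7 arrays. The brighter Krt5 probe passed at 20.0 on ST7 replicate 1 and failed at 22.6 on LT7 replicate 2. Krt83 read 77.1 and 23.2 in LT7, of which only the first passed. Krt75 passed in GFP at 19.7 and 17.3, below the LT7 limits.

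**Figure D1:**
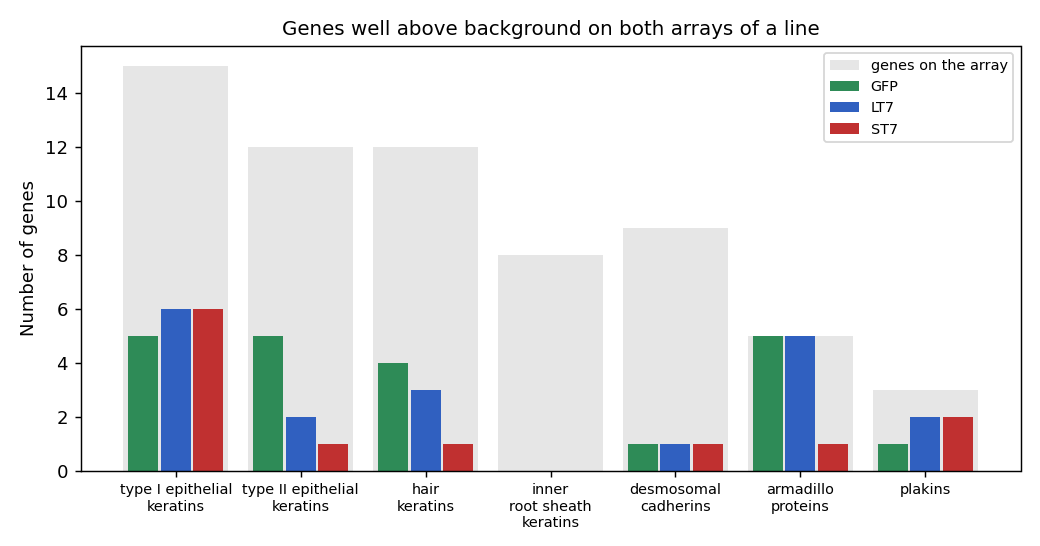
Number of genes (vertical axis, from 0) well above background on both arrays of GFP, LT7 and ST7, by role; the grey bar is the number of genes of that role on the array. All 5 armadillo proteins were detected in GFP and LT7 and 1 in ST7, while type I epithelial keratins numbered 5, 6 and 6 of 15.

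At least 1 array showed 33 of the 64 genes well above background, against 31069 of all 50090 gene names. On no array were the other 31 genes well above background. They were 7 of the 9 desmosomal cadherins (Dsc1, Dsc2, Dsg1a, Dsg1b, Dsg1c, Dsg2 and Dsg3), 8 of the 12 hair keratins (Krt31, Krt32, Krt34, Krt35, Krt36, Krt39, Krt40 and Krt82), 5 of the 8 keratins of the inner root sheath (Krt25, Krt28, Krt71, Krt72 and Krt74), 5 of the 15 type I epithelial keratins (Krt12, Krt20, Krt23, Krt24 and Krt222) and 6 of the 12 type II epithelial keratins (Krt4, Krt76, Krt77, Krt78, Krt79 and Krt80). All 5 armadillo proteins and all 3 plakins were detected on at least 1 array. The 47 probes that were on no array well above background had signals of 2.68 to 15.1 with a median of 3.91. No fold is given for these genes, since their change after the shift is that of the array background.

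Another 8 genes were well above background on single arrays. Krt26 had a signal of 84.1 on LT7 replicate 2 and of 4.65 on replicate 1, and Krt73 had 32.8 on ST7 replicate 1 and 3.10 on replicate 2. Dsg4, a desmoglein of hair, had 53.4 on LT7 replicate 1 and 4.91 on replicate 2. In each of these the replicates of the line lay far apart. Krt19, a small keratin of simple epithelia, reached 25.9 on LT7 replicate 2 against 13.01 on replicate 1, Krt27 reached 19.0 on ST7 replicate 2 against 2.84, and Krt1 reached 19.9 on GFP replicate 1 against 2.86. Krt9 and Krt10, of cornified epidermis, were close to the detection limit everywhere, with signals between 9.61 and 21.8 and between 12.6 and 19.6.

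**Figure D2:**
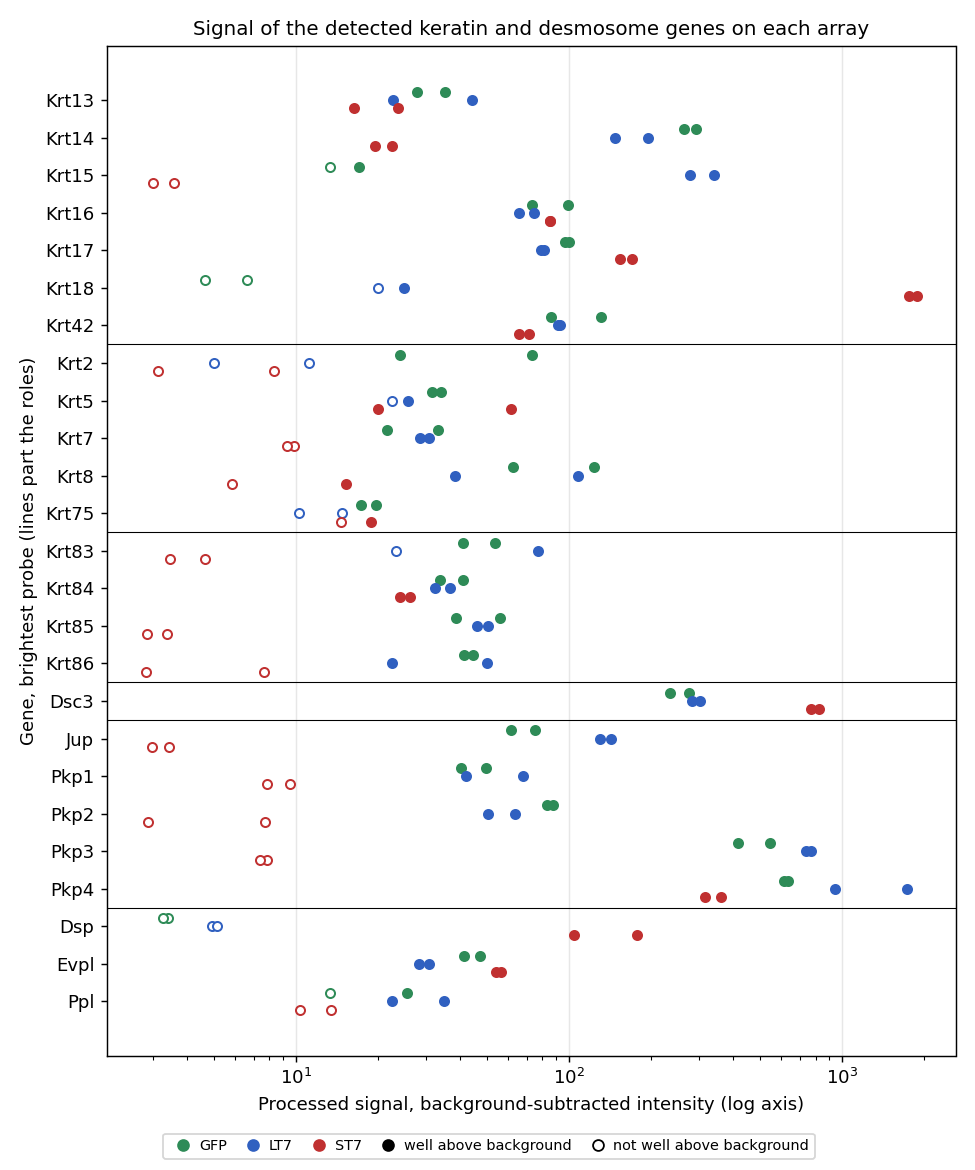
Processed signal (horizontal log axis, background-subtracted intensity) of the brightest probe of the 25 genes detected on both arrays of at least 1 line; each point is 1 of the 6 arrays, filled where well above background, and horizontal lines part the roles. Krt18 and Dsp in ST7 and Krt15 in LT7 lie far to the right of the other lines, and Jup, Pkp1, Pkp2 and Pkp3 lie far to the left in ST7.

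In signal as read, Krt18 and Krt8, the pair of simple epithelia, took opposite courses on the ST7 arrays. Krt18 had a signal of 6.64 and 4.64 on the GFP arrays, 20.0 and 25.0 on the LT7 arrays and 1881 and 1755 on the ST7 arrays. Both ST7 arrays lay far above all others, both LT7 arrays lay above both GFP arrays, and outside ST7 only LT7 replicate 2 was well above background. In ST7 Krt18 was called higher than in GFP and than in LT7 under all 5 scalings, where the share of all probes called higher than in GFP ran from 0.39% with the spike-in RNAs to 18.8% after the shift. The log2 change against GFP was 12.75 (SE 0.25, adjusted p = 1.7e-05, limma) after the shift, and between 8.36 without scaling and 12.75 over the 5. Without scaling this was at least 135-fold, and at least 2841-fold relative to the 75th percentile, counted from the lowest signal that passed as well above background on a GFP array. Against LT7 the log2 change was 10.64 after the shift and 6.34 without scaling, which is 81.2-fold. In LT7 against GFP it was 2.11 (SE 0.25, adjusted p = 0.087, limma), which did not pass the test.

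Krt8 was measured by 2 probes, and neither followed Krt18. The first gave 123 and 62.2 on the GFP arrays, 108 and 38.3 on the LT7 arrays and 15.3 and 5.82 on the ST7 arrays, of which only ST7 replicate 1 was well above background. The second gave 117 and 61.4 on the GFP arrays, 95.6 and 42.5 on the LT7 arrays and 2.87 and 3.10 on the ST7 arrays, not well above background. The GFP and LT7 values overlapped in both probes, and the replicates of each of these lines lay far apart. The ST7 values of both probes were below those of the other lines. The second probe was called lower in ST7 than in GFP under 4 of the 5 scalings, with log2 changes between -4.83 and -2.37, and after the 75th percentile shift of all probes its change was -0.43 (SE 0.44, adjusted p = 0.38, limma). For the first probe the change was -3.21 without scaling, where it was called lower. Under the other scalings it was not called. There the change was 1.18 after the shift (adjusted p = 0.15, limma) and 0.41 with quantile normalization. It was -0.76 with the percentile of probes detected on all arrays and -3.04 with the spike-in RNAs, so the direction of this probe depended on the scaling. The second probe was lower in ST7 by at least 5.77-fold without scaling.

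Krt15, the type I keratin of basal cells and of the hair follicle bulge, rose in LT7. Its signal was 17.0 and 13.4 on the GFP arrays, 277 and 339 on the LT7 arrays and 2.99 and 3.58 on the ST7 arrays. Both LT7 arrays lay above all the others, GFP replicate 1 was well above background and replicate 2 was not, and neither ST7 array was. In LT7 against GFP the log2 change was 4.44 (SE 0.23, adjusted p = 0.016, limma) after the shift, or 21.8-fold. The signal as read went from 15.2 ± 2.56 to 308 ± 44.0 (SD, n = 2), which is 20.3-fold without scaling. The Krt15 probe was the only one of the 84 called in that comparison, in which 0.0359% of all probes were called higher and 0.132% lower. At an unadjusted p under 0.05 (limma) there were 37 of the 84, against 16699 of all 61307 probes. Over the probes well above background in at least 1 line there were 7 of 29, against 3426 of 33297. With quantile normalization there were 6 of the 84, against 3230 of all probes, and with normexp 9, against 6303. The size of the Krt15 change was 4.35 without scaling and 3.81 with quantile normalization. It was 4.64 without LT7 replicate 1, the array that was read alone in a second scan. The call was lost under 7 of 14 alternatives, among them quantile normalization (adjusted p = 0.11), spike-in RNAs (log2 change 2.22, adjusted p = 0.49), and fits without GFP replicate 1 (adjusted p = 0.27), without GFP replicate 2 (adjusted p = 0.13) and without either ST7 array (adjusted p = 0.065). In ST7 Krt15 was called lower than in LT7 under 4 of the 5 scalings, all but the spike-in RNAs, and without scaling it was at least 20.8-fold lower.

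Krt14 and Krt5, the pair of basal keratinocytes, were detected in GFP. Krt14 had a signal of 264 and 293 on the GFP arrays, 195 and 148 on the LT7 arrays and 22.5 and 19.5 on the ST7 arrays, and the lines did not overlap. Without scaling it was 13.3-fold lower in ST7 than in GFP (log2 change -3.73, adjusted p = 9.8e-05), but its change was 0.67 after the shift (adjusted p = 0.051) and 0.73 with quantile normalization. Against LT7 the calls themselves turned, with a log2 change of 1.28 after the shift and -3.02 without scaling. Krt5 had 34.0 and 31.6 on the GFP arrays, 25.7 and 22.6 on the LT7 arrays and 20.0 and 61.6 on the ST7 arrays through its brighter probe, so that the ST7 values spanned those of the other lines. Its other probe gave 21.6 and 21.8 on the GFP arrays, 13.7 and 16.8 on the LT7 arrays and 12.6 and 14.1 on the ST7 arrays and was well above background in GFP alone. The brighter probe was called higher in ST7 than in GFP after the shift (4.50) and was 0.10 without scaling, and the other probe was called lower without scaling (-0.70).

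The stress and wound keratins Krt16 and Krt17 kept their signal on the dim ST7 arrays. Krt17 had 96.8 and 99.8 on the GFP arrays, 81.3 and 79.2 on the LT7 arrays and 153 and 171 on the ST7 arrays, and the 3 lines did not overlap. It was called higher in ST7 than in GFP and than in LT7 under 4 of the 5 scalings, with a log2 change against GFP of 5.12 (SE 0.21, adjusted p = 1.7e-05, limma) after the shift and 0.72 (adjusted p = 0.018), or 1.65-fold, without scaling. With the spike-in RNAs it was 0.89, which was not called. Krt16 had 73.5 and 99.1 on the GFP arrays, 74.2 and 65.4 on the LT7 arrays and 85.1 and 85.6 on the ST7 arrays. The ST7 values of Krt16 lay between the GFP values, and its change was 4.40 after the shift and 0.00 without scaling. Krt42 and Krt13 were measured on all 6 arrays, Krt42 at 131 and 85.8 in GFP and 65.7 and 71.4 in ST7, and Krt13 at 35.1 and 27.8 in GFP and 23.7 and 16.3 in ST7. Both were called higher in ST7 than in GFP under 3 scalings and had the opposite sign without scaling and with the spike-in RNAs. The other Krt13 probe, well above background on no array, read 2.87 to 7.59 over the 6 arrays.

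Krt7, of simple and glandular epithelia, had 33.1 and 21.5 on the GFP arrays, 30.7 and 28.6 on the LT7 arrays and 9.83 and 9.27 on the ST7 arrays, where it was not well above background. Among the hair keratins, Krt84 had 40.9 and 33.6 on the GFP arrays, 32.4 and 36.6 on the LT7 arrays and 24.02 and 26.1 on the ST7 arrays, and was the one detected there on both arrays. Krt85 went from 56.0 and 38.5 in GFP and 50.5 and 46.1 in LT7 to 2.85 and 3.37 in ST7. Krt86 gave 41.3 and 44.5 on the GFP arrays, 50.1 and 22.5 on the LT7 arrays and 2.82 and 7.65 on the ST7 arrays. The probe named Krt83, whose accession carries the symbol Krt87 in RefSeq, gave 53.8 and 41.004 on the GFP arrays, 77.1 and 23.2 on the LT7 arrays and 3.47 and 4.64 on the ST7 arrays. Without scaling Krt85 was at least 3.15-fold, Krt86 at least 2.91-fold and Krt83 at least 3.19-fold below the GFP value in ST7, and each was called. After the shift the log2 changes were 0.50, 1.19 and 0.85, and none of them passed. Krt2, of the upper epidermis, had 73.2 and 24.1 on the GFP arrays, 5.03 and 11.2 on the LT7 arrays and 8.29 and 3.14 on the ST7 arrays. Its other probe was well above background on no array and read 2.90 and 2.89 on the GFP arrays. Krt75, a companion layer keratin, had signals between 10.3 and 19.7 in all lines.

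**Figure D3:**
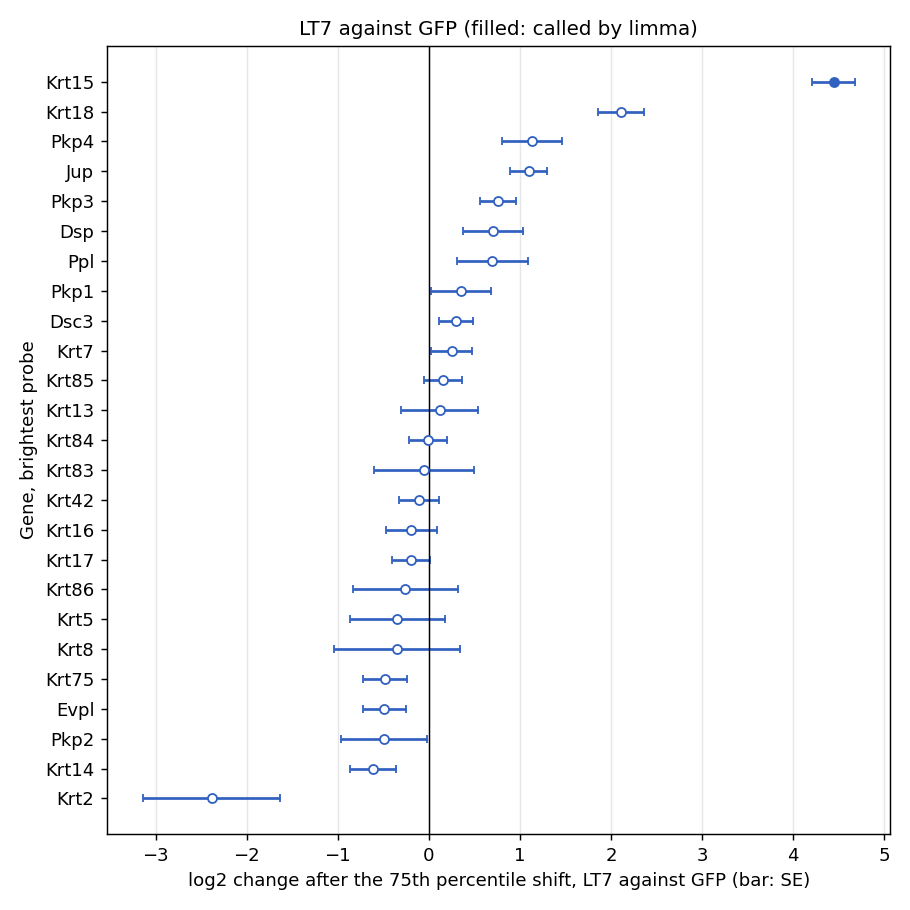
log2 change of LT7 against GFP after the 75th percentile shift (horizontal axis) with its SE for the brightest probe of the 25 detected genes; filled where called. Krt15 (4.44) is the one filled point, and Krt18 (2.11) is next.

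The desmosomal cadherins were represented by Dsc3 alone. Dsc3, the desmocollin of basal layers, had a signal of 275 and 234 on the GFP arrays, 302 and 283 on the LT7 arrays and 773 and 824 on the ST7 arrays. Both ST7 arrays lay above all others, and the GFP and LT7 values were close, the LT7 change being 0.30 on the log2 scale (SE 0.19, adjusted p = 0.39, limma). In ST7 against GFP the change was 6.05 (SE 0.19, adjusted p = 1.7e-05, limma) after the shift and 1.65 (adjusted p = 0.0010) without scaling, which is 3.14-fold. It was called higher under 4 of the 5 scalings against GFP and against LT7, and with the spike-in RNAs the change was 1.82 and was not called. The other 8 cadherins, among them every desmoglein, showed no probe well above background on both arrays of any line.

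The armadillo proteins were all detected in GFP and LT7, and in ST7 Pkp4 alone was. Jup, plakoglobin, had 75.4 and 61.6 on the GFP arrays, 130 and 142 on the LT7 arrays and 2.96 and 3.45 on the ST7 arrays. The LT7 arrays lay above the GFP arrays (log2 change 1.096, SE 0.20, adjusted p = 0.10, limma, not called), and the ST7 arrays lay below both. Jup was called lower in ST7 than in LT7 under 4 of the 5 scalings and lower than in GFP under 3, but its change against GFP was -0.02 after the shift of all probes. Without scaling it was at least 4.63-fold lower than in GFP and at least 9.25-fold lower than in LT7. Pkp3 had 546 and 415 on the GFP arrays, 768 and 736 on the LT7 arrays and 7.86 and 7.36 on the ST7 arrays. It was called lower in ST7 than in GFP under all 5 scalings, with log2 changes between -5.97 and -1.57 (SE 0.20, adjusted p = 0.00067, limma, after the shift), and lower than in LT7 under 4. Without scaling it was at least 32.3-fold lower than in GFP, and relative to the 75th percentile at least 1.53-fold lower.

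Pkp2 had 83.3 and 87.8 on the GFP arrays, 63.5 and 50.6 on the LT7 arrays and 2.87 and 7.69 on the ST7 arrays, and Pkp1 had 40.3 and 49.7 on the GFP arrays, 67.9 and 41.9 on the LT7 arrays and 9.49 and 7.87 on the ST7 arrays. Both were called lower in ST7 than in GFP without scaling, and after the shift Pkp2 changed by 0.21 and Pkp1 by 2.03, neither of them called. Pkp4, which is also found at cell junctions outside desmosomes, had 614 and 634 on the GFP arrays, 1729 and 942 on the LT7 arrays and 361 and 316 on the ST7 arrays through its brighter probe. The other probe gave 351 and 305 on the GFP arrays, 266 and 490 on the LT7 arrays and 231 and 215 on the ST7 arrays. Both probes were called higher in ST7 than in GFP under 3 scalings and had the opposite sign without scaling and with the spike-in RNAs, so no direction of Pkp4 can be given.

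Dsp, desmoplakin, was detected in ST7 only, by 2 of its 4 probes. The brightest had a signal of 3.40 and 3.26 on the GFP arrays, 4.95 and 5.17 on the LT7 arrays and 178 and 104 on the ST7 arrays. The second had 2.79 and 2.99 on the GFP arrays, 4.44 and 4.57 on the LT7 arrays and 85.6 and 76.7 on the ST7 arrays. Both ST7 arrays lay far above all others in both probes. Both were called higher in ST7 than in GFP and than in LT7 under all 5 scalings, with log2 changes against GFP of 9.75 (SE 0.33, adjusted p = 1.7e-05, limma) and 9.21 after the shift and of 5.36 and 4.81 without scaling. Without scaling the brightest was at least 10.1-fold and the second at least 6.004-fold higher than in GFP. The third probe gave 15.1 and 6.01 in ST7 against 2.98 and 2.98 in GFP and was not well above background, and the fourth, which had 8 spots, gave 3.44 and 3.41 in ST7 against 3.53 and 4.97 in GFP.

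**Figure D4:**
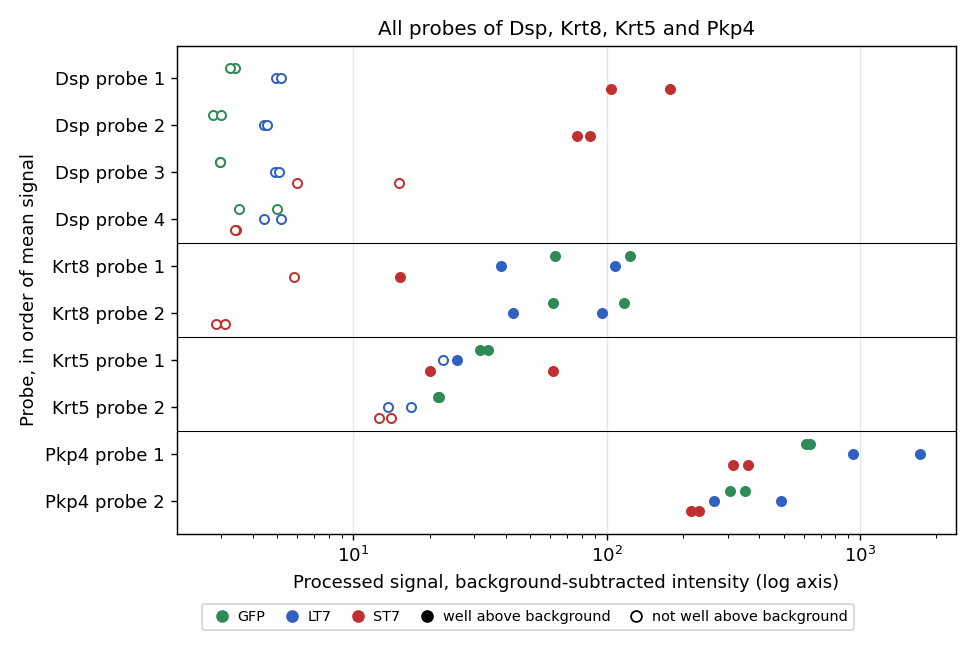
Processed signal (horizontal log axis) on each of the 6 arrays for all probes of Dsp, Krt8, Krt5 and Pkp4, filled where well above background. Of the 4 Dsp probes 2 lie far to the right in ST7, and both Krt8 probes lie to the left in ST7.

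Evpl, envoplakin, had 41.4 and 47.2 on the GFP arrays, 28.2 and 30.7 on the LT7 arrays and 54.3 and 56.2 on the ST7 arrays, without overlap of the lines. It was called higher in ST7 than in GFP under 3 of the 5 scalings and than in LT7 under 4, with a change against GFP of 4.72 after the shift and 0.32 (adjusted p = 0.21) without scaling. Its other probe, well above background on no array, gave 10.5 and 8.65 on the GFP arrays, 4.78 and 4.67 on the LT7 arrays and 5.15 and 3.67 on the ST7 arrays. Ppl, periplakin, its partner in the cornified envelope, had 25.6 and 13.4 on the GFP arrays, 22.5 and 34.9 on the LT7 arrays and 13.5 and 10.4 on the ST7 arrays, and LT7 was the one line that detected it on both arrays. The GFP and LT7 values of Ppl overlapped.

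Over all members, 13 of the 84 probes (15.5%) were called higher and 1 (1.19%) lower in ST7 than in GFP after the shift, against 18.8% and 19.8% of all probes, so that the share of members called higher was near that of the whole array. In ST7 against LT7 there were 14 higher and 3 lower, against 18.8% and 19.6% of all probes. Without scaling 5 probes (5.95%) were higher than in GFP and 13 (15.5%) lower, against 3.05% and 38.7%, and with the spike-in RNAs 3 (3.57%) rose and 2 (2.38%) fell, against 0.39% and 22.5%. In ST7 against LT7 6 probes (7.14%) were called higher and 12 (14.3%) lower without scaling, against 4.05% and 35.0% of all probes, and 3 (3.57%) higher and 0 lower with the spike-in RNAs, against 1.3% and 12.3%. The percentile of the probes detected on all arrays gave 13 higher and 6 lower than in GFP (14.7% and 27.7% of all probes) and 12 and 6 against LT7 (15.1% and 27.0%), and quantile normalization gave 13 and 4 against GFP (18.0% and 23.9%) and 14 and 5 against LT7 (18.2% and 22.5%). Without the condition on background limma called 74 member probes higher in ST7 than in GFP (70.7% of all probes) and 73 higher than in LT7 (71.0%), most of them probes that the ST7 arrays did not both detect. With the spike-in RNAs the 3 higher in ST7 than in GFP were Krt18 and both detected Dsp probes, and the 2 lower were Pkp3 and the second Krt8 probe. The median log2 change of the members in ST7 against GFP was 4.46 after the shift against 3.72 over all probes, and 0.06 without scaling against -0.68. In LT7 against GFP it was 0.69 against 0.17, and most member probes in it were near the array background, which was itself higher on the LT7 arrays (a median of 4.74 over the 47 undetected probes, against 2.90 in GFP and 3.21 in ST7).

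**Figure D5:**
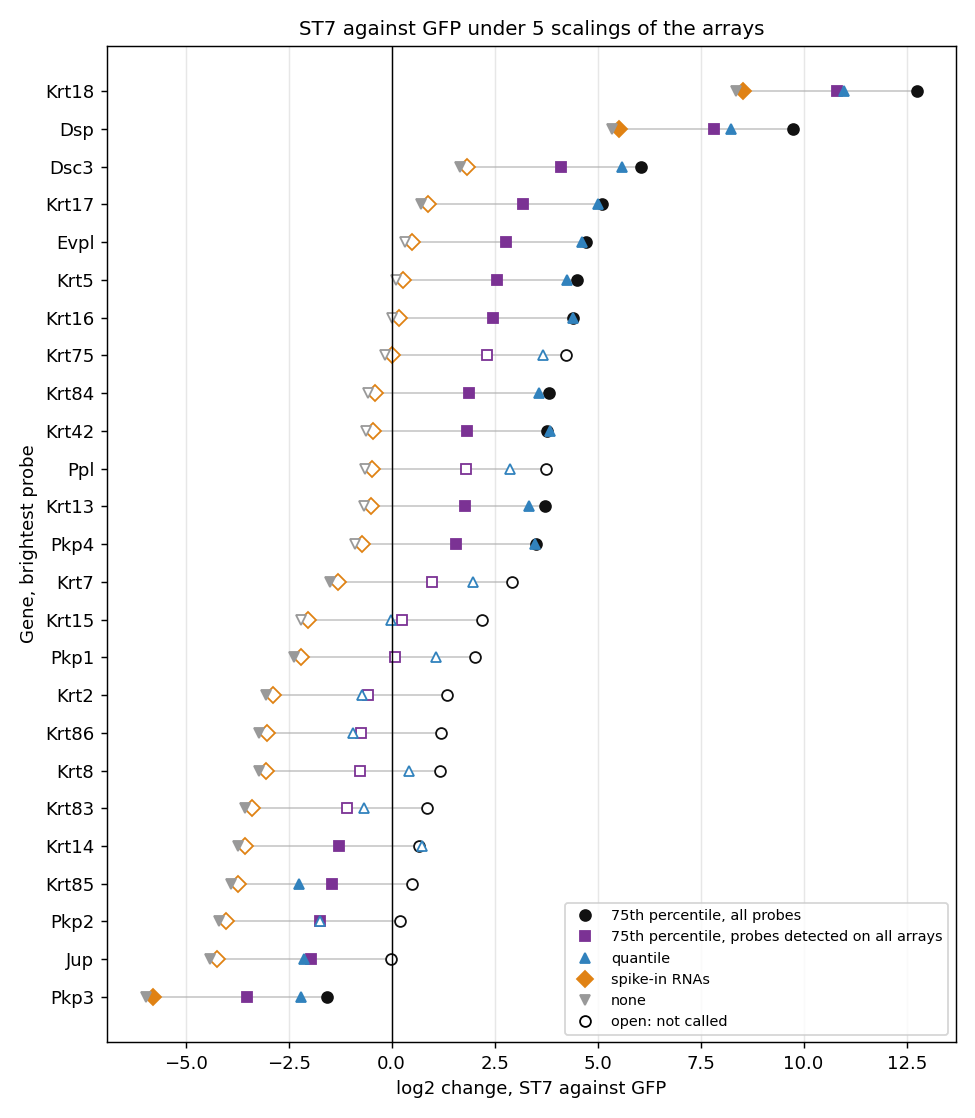
log2 change of ST7 against GFP (horizontal axis) for the brightest probe of the 25 detected genes under 5 scalings of the arrays; filled symbols were called and open ones were not. Krt18 and Dsp are filled and above 0 under all 5 and Pkp3 is filled and below 0 under all 5, while Krt13, Krt42, Krt84 and Pkp4 lie on both sides of 0.

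The proteins that work with desmosomes and keratins were read from a list of plakins, hemidesmosome parts and partners. Of 15 on the array 13 were well above background on both arrays in GFP, 13 in LT7 and 4 in ST7 through the brightest probe. In ST7 against GFP 2 were called higher and 8 lower after the shift, against 18.8% and 19.8% of all probes. Without scaling 0 were called higher and 13 lower, against 3.05% and 38.7% of all probes. Ctnna1, alpha-catenin, went from 15879 and 12166 in GFP to 3.60 and 7.85 in ST7, and Cd151, a tetraspanin of hemidesmosomes, from 5873 and 5784 to 2.89 and 3.45 through its brightest probe. The 2 other Cd151 probes stayed well above background in ST7, at 42.3 and 38.9 and at 42.5 and 40.3, and were called lower as well. Itgb4, the integrin of hemidesmosomes, went from 172 and 163 to 20.2 and 26.1, which was called higher after the shift (1.54) and was lower in signal. None of the 15 was called in LT7 against GFP.

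Other intermediate filament genes were called in both directions in ST7 against GFP, 5 higher and 3 lower of 15 after the shift. Of all probes 18.8% were called higher and 19.8% lower there. Without scaling 3 of the 15 were higher and 6 lower, against 3.05% and 38.7% of all probes. The counts of lower genes were thus near the share of the whole array. Nefl, a neurofilament gene, went from 2.80 and 3.31 in GFP to 794 and 921 in ST7, and Ina, which encodes internexin of neurons, from 70.1 and 73.0 to 382 and 455, and both were higher with and without scaling. Lmna, the gene of the nuclear lamins A and C, went from 70059 and 69389 to 275 and 183. Of the keratins with a letter in their name, which the rule left out, Krt33b had 69.4 and 57.01 on the GFP arrays, 66.4 and 61.8 on the LT7 arrays and 23.1 and 26.4 on the ST7 arrays, and Krt6a, Krt6b and Krt33a were not well above background on any array through their brightest probe.

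Markers of cells that carry keratins and desmosomes were read beside these results. Of 15 epithelial markers 1 was well above background on both arrays in GFP, none in LT7 and 2 in ST7, and their summed signal was 104 to 129 in GFP, 99.2 to 121 in LT7 and 198 to 207 in ST7. Epcam, an adhesion molecule of epithelia, went from 5.38 and 3.03 in GFP to 86.7 and 94.0 in ST7. Cdh1, E-cadherin, was at 2.96 and 3.47 in ST7 and not well above background on any array. The paper found E-cadherin in ST7 cells by RT-PCR, immunoblot and immunofluorescence, and not in GFP or LT7 cells. Why the ST7 arrays read otherwise was not tested. Of 13 keratinocyte and cornified envelope markers on the array 5 were detected in GFP, 5 in LT7 and 1 in ST7 (summed signal 10920 to 11050, 11960 to 12050, and 950 to 1154). Sbsn, a suprabasal secreted protein, fell from 3804 and 4143 in GFP to 5.29 and 5.64 in ST7, and Sfn, the 14-3-3 protein of stratified epithelia, went from 6778 and 6372 to 889 and 1070. Of 6 trophoblast markers on the array 1 was detected in GFP, none in LT7 and 1 in ST7 (summed signal 54.1 to 56.6, 50.01 to 66.3, and 97.3 to 111), the latter being Cdx2 at 97.4 and 84.4. Of 6 mesothelial markers 1 was detected in GFP and in LT7 and none in ST7 (summed signal 1359 to 1913, 873 to 1459, and 17.3 to 22.8). The part of such cells in the keratin and desmosome results was not tested.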

How the data were processed

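RNA of GFP, LT7 and ST7 cells, 2 samples per line, was labelled with Cy3 and read on 6 one-colour Agilent arrays. The deposited scanner output holds a background-subtracted intensity per spot, made by the authors with Agilent Feature Extraction. The authors' deposited value table holds log2 values after a 75th percentile shift, and it was used as an alternative. The members and gene lists were chosen with earlier results of these data known.

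Outlier spots were dropped, log2 values of a probe's spots were averaged, and each array was shifted by its own 75th percentile. Differences were tested with limma 3.58.1 in R 4.3.3 fitted to the 6 arrays together, and p-values were adjusted by the Benjamini-Hochberg method across the 61307 probes. A probe was called at an adjusted p under 0.05 when both arrays of the higher line also showed it well above background. A gene is described through its brightest probe by mean signal. The other probes of Krt5, Krt8, Pkp4 and Dsp, of which at least 1 was well above background on an array, are given too. So are those of Evpl, Krt2, Krt13 and Ppl, which were not. All members well above background on both arrays of a line, or on single arrays, are named. For a fold written as "at least", the dim side was set to the lowest signal among spots well above background on each of its arrays, or to the probe's own where higher. No member probe was saturated. Between probes of different member genes at most 35 of the 60 bases matched without gaps. Replicate numbers were not taken as pairs. Of 64 member symbols, 63 were found in the RefSeq table of GRCm38.p6. The number of arrays limits the precision. The limma calls were tested on simulated arrays with known changes in LT7 against GFP. The simulation held no dim ST7 arrays and did not test the scalings or the folds written as "at least".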

Additional observations from a re-analysis of the deposited data

How the results depend on the processing

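Krt18 and the brightest Dsp probe were called higher, and Pkp3 was called lower, in ST7 against GFP under all 14 alternatives tested with limma. The log2 change of Krt18 lay between 7.22 and 12.89, that of Dsp between 3.85 and 10.18 and that of Pkp3 between -5.97 and -0.58. The Krt15 call in LT7 was lost under 7 of 14 alternatives, where 0 member probes were called with quantile normalization, with spike-in RNAs and with the replicate block (adjusted p = 0.10 for Krt15). Leaving out 1 array at a time gave 0 to 2 member calls in LT7 against GFP, 14 to 18 in ST7 against GFP and 17 to 21 in ST7 against LT7. The 2 calls appeared without LT7 replicate 1 (Krt15 and Krt26) and without LT7 replicate 2 (Krt15 and Dsg4), where the lone array is assumed to vary like the others. The samples share only a replicate number: the correlation of their deviations was 0.086 for GFP and LT7, 0.33 for GFP and ST7 and -0.03 for LT7 and ST7 over 11084 probes. The replicate block left 14 calls in ST7 against GFP and 17 in ST7 against LT7, as without it. The methods' fold rule, which asks for no detection, gave 8 members in LT7 (7 higher and 1 lower, against 1771 and 1849 of all 61307 probes) and 75 in ST7 (74 higher and 1 lower, against 43322 and 11656), and limma without the background condition 75 in ST7 against GFP and 76 against LT7. With spike-in RNAs 5 were called against GFP and 3 against LT7. By the scanner's weaker mark, positive and significant on both arrays, 33 members were detected in GFP and 26 in ST7.

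The median log2 change of member probes in LT7 against GFP was 0.60 without scaling, 0.046 with quantile normalization, -1.53 with spike-in RNAs, 0.075 with normexp and -0.0087 over probes well above background in at least 1 line, and 0.61 to 0.84 with 1 array left out. In ST7 against GFP it was 2.52 with the percentile of probes detected on all arrays, 0.065 without scaling, 1.13 with quantile normalization, 0.24 with spike-in RNAs, 2.34 with normexp, 3.70 over probes detected in at least 1 line, and 4.39 to 4.64 with 1 array left out. In ST7 against LT7 these were 1.83, -0.55, 1.13, 1.75, 2.25, 3.60, and 3.65 to 3.88.

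Given next are only turns of a gene's direction, through its brightest probe, in which it was called after the shift or under the alternative. Without scaling the direction after the shift was turned in ST7 against GFP for Pkp1 (-2.37), Pkp2 (-4.19), Pkp4 (-0.89), Krt2 (-3.04), Krt7 (-1.48), Krt8 (-3.21), Krt13 (-0.67), Krt14 (-3.73), Krt42 (-0.63), Krt83 (-3.55), Krt84 (-0.57), Krt85 (-3.90) and Krt86 (-3.21). In ST7 against LT7 it was turned for Pkp1 (-2.62), Pkp2 (-3.59), Pkp4 (-1.92), Krt7 (-1.63), Krt8 (-2.77), Krt13 (-0.69), Krt14 (-3.02), Krt42 (-0.42), Krt84 (-0.46), Krt85 (-3.96) and Krt86 (-2.85). With spike-in RNAs it was turned against GFP for Pkp4 (-0.71), Krt13 (-0.50), Krt42 (-0.46) and Krt84 (-0.40), and against LT7 for Krt14 (-0.72). With the percentile of probes detected on all arrays it was turned against GFP for Pkp2 (-1.73), Krt14 (-1.27) and Krt85 (-1.44), and against LT7 for Krt14 (-0.65) and Krt85 (-1.59). With quantile normalization Krt85 was turned (-2.24 against GFP and -2.46 against LT7), and with normexp Jup against LT7 (0.73). Of the 33 genes well above background on an array, others changed sign in ST7 with no call on either side: 6 against GFP and 9 against LT7 without scaling, 13 and 9 with spike-in RNAs, 4 and 7 with the percentile of probes detected on all arrays, 6 and 7 with quantile normalization, and 1 against GFP with normexp. In LT7 against GFP 16 did so with spike-in RNAs, 6 with normexp and 2 with quantile normalization. Apart from quantile normalization and normexp, each of these scalings moves all values of an array by the same amount relative to the shift. Their turns, in LT7 as in ST7, come from those amounts. For quantile normalization and normexp the cause was not tested. The lower limit of detection, 13.5 in GFP and 20.0 to 22.3 in LT7, bounds what can be said of the undetected members.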
